A study of Danio rerio with 5 samples.

Results

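The genes described here encode the fatty acid binding proteins, written fabp in zebrafish and numbered by isoform. They were taken as every probe set whose single gene symbol in the array's annotation was fabp followed by a number. The rule found 8 probe sets of 7 genes, out of 15502 probe sets besides controls and 8793 genes with a symbol of their own. The genes were fabp2, fabp1b.1, fabp1a (2 probe sets), fabp6, fabp10a, fabp3 and fabp7a.

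Upper digestive tract RNA of adult zebrafish, pooled from 3 fish per array, was measured on 5 arrays with Affymetrix-style probe sets. All fish were 3 months old and of the AB background. There were 3 zCdx1b transgenic pools, and the 2 control pools were labelled wild-type. The labels name the construct Tol2-zK5p-zCdx1b-EGFP, introduced into fertilised AB* eggs with the Tol2 transposase. The zK5p element is the promoter of zebrafish keratin 5, a gene of stratified epithelium, and Cdx1b is a caudal homeobox factor of the gut. The sources used here do not give the number of transgenic lines, the sex of the fish or how far the dissection reached. No probe set was named cdx1b, so the transgene itself was not analysed here. The comparison addresses how expression in these samples differs between transgenic and wild-type pools. Transgene and dissection cannot be told apart here, and whether both groups held the same tissues was not tested.

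Fatty acid binding proteins are small cytosolic proteins that hold a fatty acid, a bile acid or another lipid inside a barrel of strands and carry it through the watery cell interior. Each isoform is known for particular tissues. FABP2 belongs to the absorptive cells of the intestine, FABP1 to liver and intestine in mammals, FABP6 to the ileum, where it binds bile acids, and FABP3 to heart and skeletal muscle. FABP7 belongs to brain and radial glia, FABP4 to adipocytes, and Fabp10 is the liver isoform of fish and other non-mammalian vertebrates.

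Some properties of the arrays touch every result. Values are the deposited log2 expression values. A background bound was set on each array as the highest reading among 44 bacterial and tag controls, and lay between 3.64 and 4.13, highest on wild-type pool 2. The summed level of striated muscle markers also set transgenic pool 1 apart, as given below. The labels call the pools biological replicates. The limma p-values below rest on the spread between these pools, taken over both groups together and drawn toward a trend over all probe sets tested. In pooled tissue, fewer cells of a type and less RNA per cell cannot be told apart.

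The isoform genes of gut and liver fabp2, fabp1b.1, fabp6 and fabp10a were high in the transgenic pools. The gene fabp3, whose isoform is known for heart and muscle, was lower there. The probe sets of fabp1a and fabp7a lay at background. Of the 8 probe sets, 5 passed the filter on low values, which asked for the 40th percentile of the array on at least 2 arrays. In limma's test with Benjamini-Hochberg adjustment over 10335 probe sets, fabp2, fabp1b.1, fabp6 and fabp10a rose and fabp3 fell. Over all probe sets kept, 10.1% rose and 11.7% fell, 21.8% in all. The probe sets of fabp1b.1, fabp6 and fabp10a reached the filter through the transgenic pools alone, so the count of rises among the members that passed supports nothing by itself. The groups did not overlap for 6 of the 8 probe sets, against 40.8% of all 15502 and 50.9% of those kept.

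**Figure D1:**
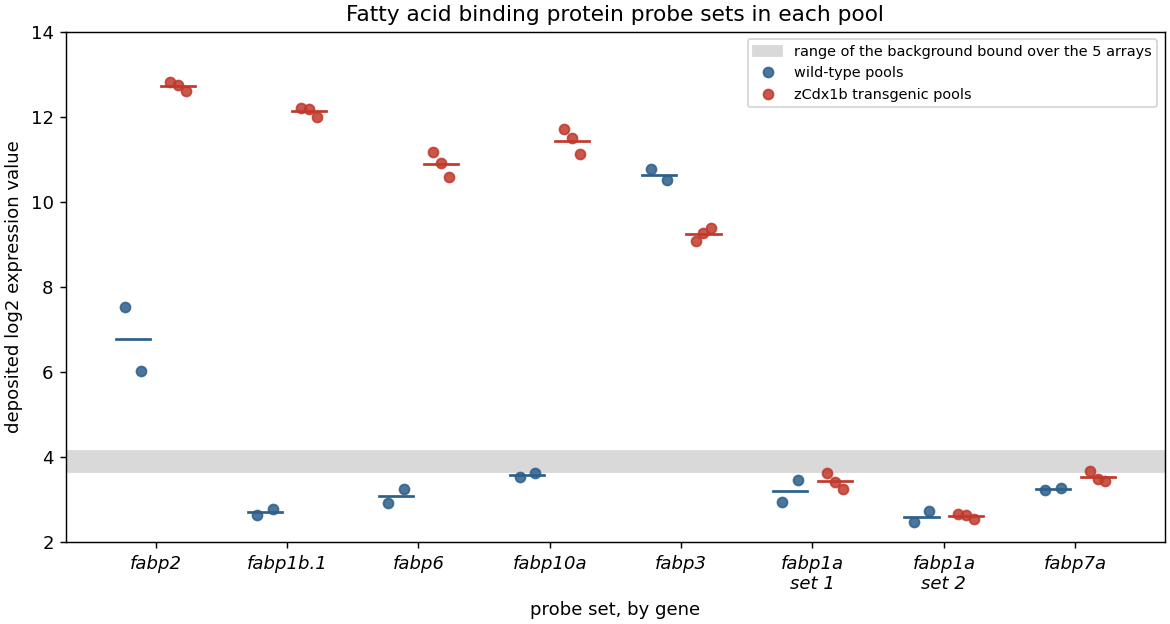
Deposited log2 expression value (vertical axis) of the 8 fabp probe sets (horizontal axis) in each pool, with 2 wild-type pools in blue and 3 zCdx1b transgenic pools in red. Short bars are group means and the grey band is the range of the background bound, 3.64 to 4.13. Wild-type values of fabp1b.1, fabp6 and fabp10a lie under the band, those of fabp2 above it, and fabp3 is the probe set whose wild-type values are higher by more than 1.1.

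The intestinal isoform gene fabp2 was above background in every pool. It read 12.82, 12.76 and 12.62 in transgenic pools 1, 2 and 3, and 7.52 and 6.03 in wild-type pools 1 and 2. All transgenic pools were higher than both wild-type pools, and the wild-type pools differed from each other by 1.49 where the transgenic pools spanned 0.21. The mean was 12.73 ± 0.11 (SD, n = 3) in transgenic and 6.78 ± 1.05 (SD, n = 2) in wild-type pools. This is a rise of 5.96 on the log2 scale (SE 0.41, 95% interval 4.96 to 6.96, limma adjusted p = 0.000407), or 62.1-fold. The size rested on the wild-type pool used, at 6.70 without pool 1 and 5.21 without pool 2.

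The probe set of fabp1b.1, a zebrafish counterpart of the mammalian liver-type gene FABP1, read 12.23, 12.20 and 12.01 in transgenic pools 1, 2 and 3. In wild-type pools 1 and 2 it read 2.64 and 2.78, below the bound of both arrays. All transgenic pools were far above the bound, and the groups did not overlap. The fitted rise was 9.44 (SE 0.21, limma adjusted p = 1.2e-05). Because the wild-type values lay under the bound, the change is a lower bound, at least 306-fold.

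The related gene fabp1a gave no such reading. Its first probe set ran from 3.24 to 3.63 in transgenic and from 2.93 to 3.45 in wild-type pools, and its second from 2.55 to 2.67 and from 2.46 to 2.73. Every value of both was at or below its array's bound, and the groups overlapped for both. They were below the filter, and in the fit without a filter their changes were 0.23 (95% interval -0.26 to 0.72, limma adjusted p = 0.592) and 0.02 (-0.29 to 0.33, limma adjusted p = 0.960). With both groups at background, these intervals do not bound a change of the transcript. Which other fabp transcripts the probes of any of these sets also match was not tested, and fabp1b.2, a second copy of fabp1b, had no probe set named for it here.

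The bile acid binding isoform gene fabp6 read 11.18, 10.92 and 10.60 in transgenic pools 1, 2 and 3, against 2.92 and 3.24 in wild-type pools 1 and 2. Both wild-type values were below the bound. The rise of 7.82 (SE 0.28, limma adjusted p = 2.9e-05) is therefore at least 129-fold. Transgenic pools spanned 0.58, over which pool 1 was highest and pool 3 lowest.

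The liver isoform gene fabp10a read 11.71, 11.51 and 11.13 in transgenic pools 1, 2 and 3. Wild-type pools 1 and 2 read 3.52 and 3.62, again below the bound of both arrays. The rise was 7.88 (SE 0.26, limma adjusted p = 2.4e-05), at least 189-fold. Its transgenic pools spanned 0.59 and kept the same highest and lowest pool as those of fabp6.

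The gene fabp3, whose isoform is known for heart and muscle, went the other way. It read 10.78 and 10.51 in wild-type pools 1 and 2 and 9.09, 9.28 and 9.39 in transgenic pools 1, 2 and 3, all well above background. The lowest wild-type pool exceeded the highest transgenic pool by 1.12, and neither group spanned more than 0.30. Wild-type pools averaged 10.64 ± 0.19 (SD, n = 2), and transgenic pools averaged 9.25 ± 0.15 (SD, n = 3). The fall of -1.39 (SE 0.18, limma adjusted p = 0.00416) is 2.62-fold, smaller than any of the 4 rises. Which cells of these pools held the fabp3 transcript was not tested.

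The brain isoform gene fabp7a read 3.67, 3.49 and 3.42 in transgenic pools and 3.23 and 3.28 in wild-type pools, all below the bounds. The groups did not overlap, by 0.15, but the change of 0.27 in the fit without a filter did not pass (95% interval -0.07 to 0.61, limma adjusted p = 0.309). In that fit 13% of all probe sets passed. The RefSeq gene table of assembly GRCz12tu lists 12 fabp genes. The 5 with no probe set named here are the adipocyte isoforms fabp4a and fabp4b, the second brain isoform fabp7b, fabp1b.2 and fabp10b, and they were not analysed here. An adipose isoform could therefore not be compared.

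The change of fabp2 was also set against those of the other isoforms, by taking the value of fabp2 minus that of the other gene on each array. The change of fabp2 minus that of fabp3 was 7.35 on the log2 scale. For fabp1b.1, fabp10a and fabp6, whose wild-type values lay under the bound, only a limit can be given. With those values raised to the bound, the change of fabp2 minus theirs was at most -2.30, -1.61 and -1.06. These limits rested on wild-type pool 1, and without it they were -1.31, -0.62 and -0.07. For fabp1a and fabp7a, at background in both groups, no size is given. Each of the 6 comparisons had p = 0.2 (two-sided exact permutation test with the smaller tail doubled, Benjamini-Hochberg adjusted 0.2). With 3 and 2 arrays this form of the test can give no smaller value, so it could not tell the isoforms apart.

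Within the transgenic group, the 4 isoforms that rose ranked the pools alike. All 4 were highest in transgenic pool 1 and lowest in transgenic pool 3, as were 92.3% of the 1043 probe sets that rose. Their spans of 0.21 for fabp2 and fabp1b.1 and of 0.58 and 0.59 for fabp6 and fabp10a stood beside a median span of 0.56 over those probe sets. The genes fabp2 and fabp1b.1 were also the brightest of the 4, and the highest value on any array was 13.58. Whether readings this high still scale with the amount of RNA was not tested. That limit also touches the sizes of the rises and the limits on the isoform differences. For fabp3 pool 1 was lowest and pool 3 highest, as for 49.2% of the 1207 probe sets that fell. The order of the pools was thus that of most probe sets that rose.

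**Figure D2:**
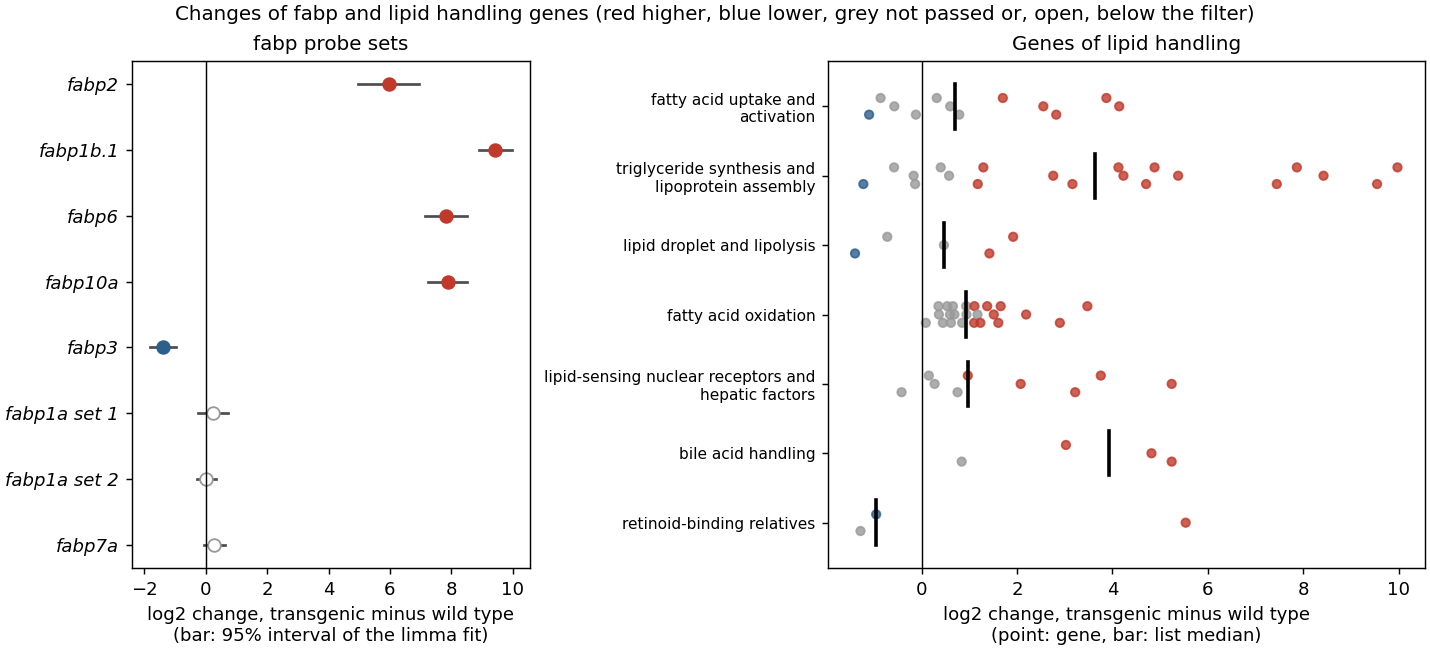
Log2 change, transgenic minus wild type, of the 8 fabp probe sets with 95% intervals (left) and of the tested genes of 6 lists of lipid handling and 1 of retinoid-binding relatives (right, with 1 point per gene and the list median as a black bar). Open symbols are the probe sets of fabp1a and fabp7a, below the filter, with values from the fit without a filter. The 4 rising isoforms lie between 5.96 and 9.44, and fabp3 at -1.39.

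Genes that work with these proteins were described from 6 lists of lipid handling, with 1 probe set per gene. Of 72 genes tested, 38 rose and 3 fell, while 31 did not pass. Their median log2 change was 1.14. Over all 6479 genes tested, 11.2% rose and 11.3% fell, and the median was -0.08. Of the 72, 16 reached the filter in transgenic pools alone, which favoured a rise, and some were known to have risen when the lists were written. The count of rises was lowest, at 29, without transgenic pool 2 or wild-type pool 2. Without transgenic pool 2 or 3, 1 gene fell in place of 3.

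Among genes of fatty acid uptake and activation, which bring lipid to the binding proteins, 5 of 12 rose, 1 fell and 6 did not pass. Of the 12, 2 reached the filter in transgenic pools alone. The acyl-CoA synthetase and transporter gene slc27a2a rose by 4.14, at least 12.9-fold, the lipoprotein receptor gene scarb1 by 3.87, and the hepatic lipase gene lipca by 2.82, at least 4.01-fold. The long-chain acyl-CoA synthetase gene acsl1a changed by -1.10, a fall (limma adjusted p = 0.0201). That call was lost without transgenic pool 2 (adjusted p = 0.0909), transgenic pool 3 (0.0618) or wild-type pool 2 (0.0521), while 2 genes of the list fell without wild-type pool 1. The fatty acid transporter gene slc27a6 and the synthetase gene acsl6 were at background in all pools.

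Triglyceride synthesis and lipoprotein assembly, which package absorbed fat for export, stood beside fabp2 and fabp1b.1. Of 20 genes 14 rose, 1 fell and 5 did not pass, and the median was 3.64. Of the 20, 9 reached the filter in transgenic pools alone, which favoured a rise. The apolipoprotein genes apoa1a, apoea and apoa4b.2 rose by at least 636-fold, 396-fold and 295-fold. The acyltransferase gene mogat3b fell by 1.22 (limma adjusted p = 0.0347), a call lost without transgenic pool 1, 2 or 3 or wild-type pool 1, at adjusted p = 0.0692, 0.117, 0.0686 and 0.0532.

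Fatty acid oxidation uses the lipid that the binding proteins deliver to mitochondria and peroxisomes. Of 23 genes 10 rose, none fell and 13 did not pass. The list's median was 0.94. The peroxisomal enzyme genes ehhadh, decr2 and hsd17b4 rose by 3.47, 2.90 and 2.19. The count of 10 became 6 when transgenic pool 1 was left out, 3 when transgenic pool 2 was and 4 when wild-type pool 2 was. On the lipid droplet list 2 of 5 genes rose, 1 fell and 2 did not pass. The droplet coat gene plin3 rose by 1.92 and the droplet gene cidec by 1.42, while the monoglyceride lipase gene mgll fell by 1.40. The mgll values in transgenic pools lay under the filter, so that this gene was not tested with either wild-type pool left out.

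Nuclear receptors and hepatic factors control many genes of lipid metabolism. Of 9 lipid-sensing receptors and hepatic factors tested, 5 rose, none fell and 4 did not pass. Of the 9, 4 reached the filter in transgenic pools alone. The corepressor gene nr0b2a rose by 5.24, at least 17.7-fold, the nuclear receptor gene hnf4a by at least 11.4-fold, and its relative hnf4g by 3.22. Bile acid genes stood beside fabp6. Of 4 tested, nr0b2a again among them, 3 rose, and the ileal bile acid transporter gene slc10a2 read 9.23, 8.78 and 8.38 in transgenic pools 1, 2 and 3 against 3.52 and 4.44 in wild-type pools 1 and 2. The bile acid synthesis gene cyp8b1.1 rose by 3.02, at least 5.63-fold. The remaining gene, cyp27a1.1, changed by 0.84 without passing. Of the 4 bile acid genes, 2 reached the filter in transgenic pools alone.

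The cellular retinoid-binding proteins, relatives of the fabp proteins, changed in both directions. Of 3 tested, rbp2a, the intestinal retinol-binding gene, rose by 5.53 (SE 0.28, limma adjusted p = 0.000142). The retinoic acid-binding gene crabp2b fell by 0.95 (limma adjusted p = 0.0208), and crabp2a changed by -1.28 without passing. The fall of crabp2b did not pass without transgenic pool 2 (adjusted p = 0.0976) or wild-type pool 1 (0.0537).

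**Figure D3:**
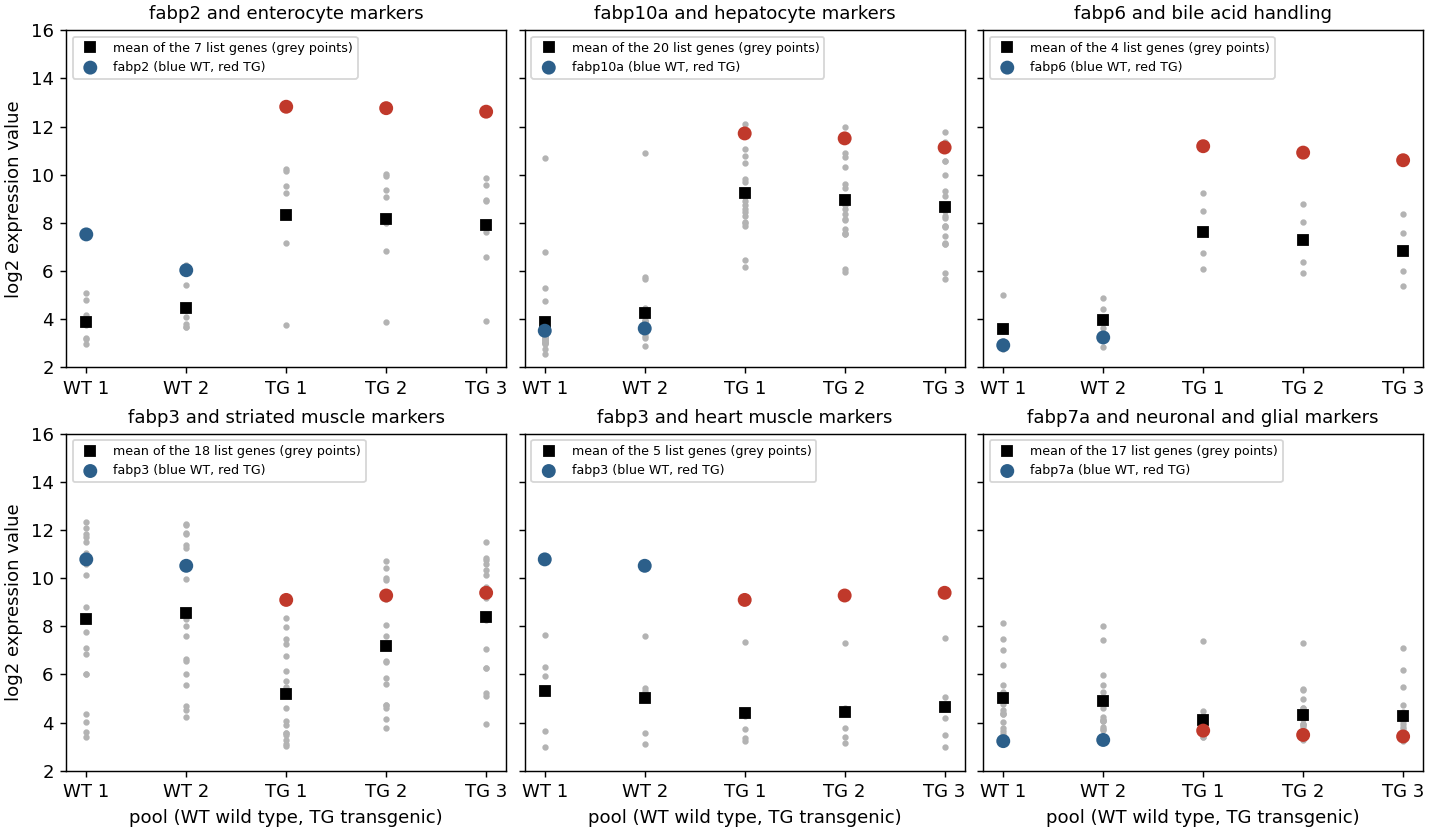
Log2 expression value of 5 fabp genes (large points, blue wild type, red transgenic) in each pool, with the genes of a marker or pathway list as grey points and their mean as a black square. The mean of the striated muscle list in transgenic pools runs from 5.17 in pool 1 to 8.40 in pool 3, and fabp3 lies between 9.09 and 9.39.

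Markers of the tissues for which the isoforms are named were described in the same pools. Of 7 enterocyte markers, 6 rose and 1 fell, and 4 reached the filter in transgenic pools alone. Their summed level (the log2 of the sum of unlogged values) was 11.54 to 12.02 in transgenic and 6.91 to 7.61 in wild-type pools. For every list the summed level takes in all its genes on the array, also those below the filter that were not tested. In both wild-type pools slc15a1b, alpi.2 and si were at or below the bound. Above it in both were cdh17, mep1a.1 and alpi.1. The adhesion gene cdh17 read 4.79 in wild-type pool 1 and 6.24 in pool 2. In the same pools mep1a.1 read 4.16 and 4.36, and alpi.1 read 5.11 and 5.43. Each of these was higher in pool 2, by the most for cdh17, whereas fabp2 was higher in pool 1. The gene that fell, the alkaline phosphatase gene alpi.1, was under the filter in the transgenic pools and was not tested with either wild-type pool left out. The part of these markers in the rise of fabp2 was not tested.

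Hepatocyte markers stood beside fabp10a. Of 20 tested, 18 rose and none fell, but 16 of the 20 reached the filter in transgenic pools alone. Their summed level was 13.98 to 14.41 in transgenic and 10.95 to 11.12 in wild-type pools, and 16 of them were at or below the bound in both wild-type pools. The 2 that did not pass were fah, at 0.86, and the retinol carrier gene rbp4, which read 10.70 and 10.88 in wild-type pools 1 and 2. Most of the summed wild-type level thus came from rbp4 alone. The median log2 change of the hepatocyte list was 5.14. Of 16 exocrine pancreas markers 15 passed the filter and rose, and 9 of these reached it in transgenic pools alone, which favoured a rise. The summed level of the pancreas list was 16.01 to 16.21 against 7.93 to 8.21. Its median log2 change was 8.14, the largest of any list here. The rise beside fabp10a was thus not particular to hepatocyte markers. The part of both lists in the rises of fabp10a, fabp1b.1 and fabp6 was not tested.

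Beside fabp3, 4 of 18 striated muscle markers fell and none rose, where 11.3% of all 6479 genes tested fell. The median over all 18 was -2.30. Of the 14 that did not pass, pvalb1, pvalb2, pvalb3 and acta1a changed upwards, by 1.48, 2.12, 1.17 and 0.50, and the others downwards. The list's mean level in transgenic pool 3 was 8.40, between the 8.29 and 8.53 of wild-type pools 1 and 2. The summed level of the muscle markers was 10.39, 12.83 and 13.75 in transgenic pools 1, 2 and 3 and 14.62 and 14.66 in wild-type pools 1 and 2. Without transgenic pool 1, the pool lowest in muscle markers, 11 of them fell and 1 rose, with a median of -1.49, and fabp3 had a change of -1.31 (limma adjusted p = 0.00592). Over all 9901 probe sets tested without that pool, 855 fell and 995 rose. The muscle list spanned 3.36 between transgenic pools on the summed scale, and fabp3 spanned 0.30. The part of the muscle markers in the fall of fabp3 was not tested. Without transgenic pool 2 the falls among muscle markers were 1 and without transgenic pool 3 they were 8. Over all probe sets, 367 of 10155 fell without transgenic pool 2 and 857 of 10134 without transgenic pool 3. With either wild-type pool left out, the lone one has no spread of its own. That limit holds for the calls given for other lists in these settings, and calls of the muscle list are not counted there. The list's median was then -2.27 without pool 1 and -2.36 without pool 2. In the same settings fabp3 changed by -1.26 and -1.52.

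Members of other lists also fell beside fabp3. Of 3 heart markers tested, the troponin gene tnnt2a fell by 1.84 and 2 did not pass. The call of tnnt2a was lost without wild-type pool 1 (limma adjusted p = 0.0594), and 2 of the 3 fell without wild-type pool 2 or transgenic pool 3. The cardiac myosin light chain genes myl7 and cmlc1 were below the filter. All 12 squamous epithelium markers fell, with a median of -2.03 and a summed level of 12.66 to 13.19 in transgenic and 14.69 to 14.88 in wild-type pools. Of these, 5 fell when wild-type pool 1 was left out and 7 when pool 2 was. Macrophage and leukocyte markers gave 3 falls, 1 rise and 8 that did not pass (7 falls without wild-type pool 2), with a summed level of 11.22 to 12.01 and 12.60 to 12.99. Their part in the fall of fabp3 was not tested.

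For the brain and adipose isoforms the lists gave little. Of 10 neuronal and glial markers tested, 4 fell and 6 did not pass (0 to 2 falls with 1 pool left out), at a summed level of 8.68 to 8.89 in transgenic and 9.66 to 9.92 in wild-type pools. The astroglial gene gfap was at or below the bound on all 5 arrays, as was fabp7a. Of 2 adipocyte markers tested, cidec rose and the complement factor D gene cfd did not pass, at a summed level of 10.14 to 10.36 and 9.65 to 10.74, which overlap. Of 2 endothelial markers, kdrl and fli1, neither passed.

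The genes most like each isoform were found among 6474 other genes by the root mean square distance between log2 profiles over the 5 arrays, each profile taken relative to its own mean. For fabp2 the nearest was rbp2a, at 0.26, which read 7.80 and 6.80 in wild-type pools 1 and 2 and 12.88, 12.87 and 12.76 in transgenic pools. The next were the apolipoprotein gene apoc1 and the transferrin gene tfa, both at 0.37. For fabp1b.1 they were apoea, at 0.10, and the digestive protease genes ctrb.1, at 0.11, and prss1, at 0.13. For fabp6 they were the carboxypeptidase gene cpa1, at 0.07, and the desaturase gene fads2 and the astacin protease gene c6ast3, both at 0.09. For fabp10a they were c6ast3, at 0.11, and cpa1 and the apolipoprotein gene apoc2, both at 0.15. The wild-type values of fabp1b.1, fabp6 and fabp10a, and of all their neighbours named here, lay under the bound. Their distances thus rest in part on background readings.

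For fabp3 the nearest profiles were those of septin7a, cyp26b1 and emd, at 0.04, 0.04 and 0.05. They encode a septin, a retinoic acid degrading enzyme and the nuclear envelope protein emerin, and their changes were -1.42, -1.46 and -1.44. Without transgenic pool 2 their changes were -1.45, -1.48 and -1.47, and none of the 3 passed (limma adjusted p = 0.0776, 0.0507 and 0.0789). Since 2 group means and 5 arrays shape these distances, they describe the profiles only.

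**Figure D4:**
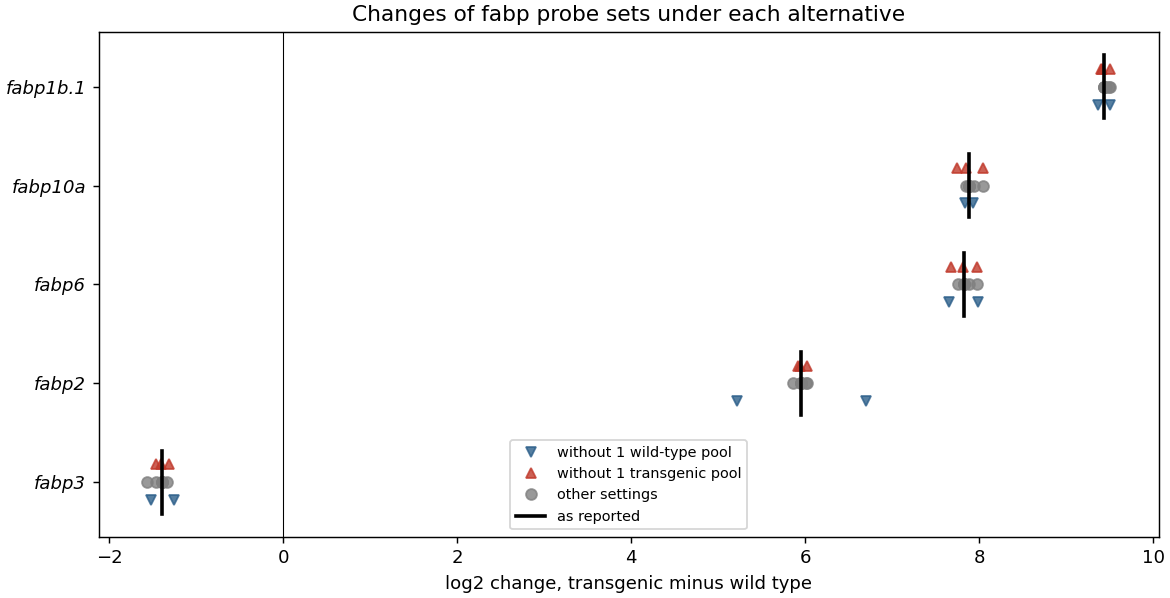
Log2 change, transgenic minus wild type, of the 5 fabp probe sets that passed the filter, as reported (black bar) and under each alternative (triangles with 1 pool left out, grey circles for other settings). Each gene stays on its side of 0, and the widest spread is that of fabp2, from 5.21 to 6.70, with 1 wild-type pool left out.

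The calls of all 5 fabp probe sets held whichever transgenic pool was left out, and the changes kept their sign whichever pool was. With a wild-type pool left out, the lone one has no spread of its own, so calls there do not test stability. For fabp2 the SD was 1.05 in wild-type and 0.11 in transgenic pools. The widest range belonged to fabp2, and that of fabp3 ran from -1.56 to -1.26 over all alternatives, as the plot of changes under each alternative shows. Only 2 wild-type arrays set the wild-type level, which limits the precision of every value given.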

How the data were processed

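Expression was analysed from the log2 values the authors deposited for each array. The submitters' processing notes name MAS5, without its version or scaling target, and no source used here states the log step. The base of 2 was taken from the range of the values, 2.23 to 13.58, and each array had the same mean of 4.89. Probe sets were named from GEO's platform annotation, with symbols checked against a RefSeq gene table of GRCz12tu through Entrez identifiers, and none was named from several symbols.

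The groups were compared in R 4.3.3 by limma 3.58.1 (lmFit, eBayes with a trend, no covariate, two-sided, Benjamini-Hochberg threshold 0.05) over 10335 probe sets; 115 control probe sets were left out, and the fit was tested on simulated data. A gene's probe set with the highest mean represented it in lists. Genes were picked by a rule, starting from every fabp probe set and the 3 nearest profiles of each fabp gene that passed. The rule added up to 3 rises and 3 falls of each lipid or retinoid list, and the 3 brightest of each marker list. Not all of these are named above, and others were chosen after their values were seen. For an at-least fold, each array of the dimmer group took the higher of its bound and its value. The members and lists were chosen with earlier results of these data known. The exact permutation tests used scipy 1.17.1. No scanner intensities, detection calls or sequences were used.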

Additional observations from a re-analysis of the deposited data

How the results depend on the processing

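Alternatives were quantile normalization, median centring, omitting the filter or raising it to the 60th percentile, eBayes with no trend or a robust one, the replicate block, a 2-fold minimum, a threshold of 0.1, and each pool left out. With both wild-type pools kept, 4 fabp probe sets rose and 1 fell under all of them. Over all alternatives the log2 changes ran from 9.36 to 9.51 for fabp1b.1, 7.75 to 8.04 for fabp10a and 7.66 to 7.98 for fabp6. They ran from 5.21 to 6.70 for fabp2 and from -1.56 to -1.26 for fabp3. With a wild-type pool left out, the lone one is assumed to vary like the transgenic pools, so calls there do not test stability. As measured, the change of fabp2 minus that of another isoform kept its sign under both normalizations and with each pool left out, but its size did not: from -1.93 it ran from -2.72 to -1.13 for fabp10a and from -1.86 it ran from -2.77 to -0.96 for fabp6, each smallest without wild-type pool 1. The sizes for fabp10a and fabp6 use wild-type values under the bound, so they describe the readings, and only the limits given above bound the difference. The limits with wild-type values at the bound were added after seeing the data. Over all probe sets, 1043 rose and 1207 fell; leaving out 1 pool gave 649 to 1164 rises and 367 to 1445 falls, the lowest of both without transgenic pool 2, and 592 falls without wild-type pool 1. The falls were 780 at a minimum of 2-fold and 1821 at a threshold of 0.1. Of the lipid handling genes, 1 to 3 fell with a pool left out. Replicate numbers 1 and 2 occur in both groups, and the deviations of same-numbered pools correlated at -0.25 and -0.13 across probe sets. The deviations of the 2 wild-type pools mirror each other, so this check cannot decide whether same-numbered pools were handled together. With the replicate block fabp2 rose by 6.02, fabp1b.1 by 9.50, fabp6 by 7.97 and fabp10a by 8.04, and fabp3 changed by -1.46. No fabp call was changed. Transgenic pool 3 has no wild-type pool of its number, so the block takes that pool out of the comparison. These changes equal those without transgenic pool 3, and the block is no separate check of them. Of 58 other genes picked by the rule, not all named above, 9 lost a call under some alternative and 5 gained one, muscle and heart markers among them. With the block, acsl1a, crabp2b and septin7a lost theirs (limma adjusted p = 0.103, 0.0508 and 0.0651). Values near the bound do not resolve levels, which limits fabp1a, fabp7a and the wild-type values of fabp1b.1, fabp6 and fabp10a.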

Other observations

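A probe set with no gene name in the tables used here carries the same cluster number in its identifier as the fabp3 probe set. It read 9.52 and 9.53 in wild-type pools 1 and 2 and 7.52, 7.81 and 7.94 in transgenic pools 1, 2 and 3. The groups did not overlap, and the change was -1.77 (SE 0.23, limma adjusted p = 0.00443). It was singled out after its values were seen, and no gene is given to it here.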
